A study of Mus musculus with 19 samples.

Results

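The microRNAs mmu-miR-106b, mmu-miR-93 and mmu-miR-25 are cut from 1 cluster of hairpins inside the mouse gene Mcm7. They were followed in livers of mice dosed with the hydrocarbon dibenz[a,h]anthracene. They were chosen by name on the array, as the guide strands of the cluster, and make 3 of the 696 mouse miRNAs that the array measures. All 3 were detected on all 19 arrays and were among the 208 miRNAs tested. Liver RNA of 19 male MutaMouse animals (transgenic strain 40.6) of 10 weeks was hybridised, 1 array per mouse. MutaMouse carries a bacterial reporter gene for counting mutations, and all groups carry it. Mice were gavaged once a day for 28 days with olive oil alone (control, 5 arrays) or with this compound dissolved in it. The dose was 6.25 mg/kg/day (low dose, 5 arrays), 12.5 mg/kg/day (middle dose, 4 arrays) or 25 mg/kg/day (high dose, 5 arrays), and livers were collected 3 days after dosing ended. Dibenz[a,h]anthracene is a polycyclic aromatic hydrocarbon, an activator of the aryl hydrocarbon receptor whose metabolites bind DNA and damage it.

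A microRNA (miRNA) is a short RNA that guides an Argonaute protein to partly matching messenger RNAs and lowers their output. Its seed, bases 2 to 8 from the 5′ end, sets most of the targets. Mcm7 encodes a subunit of the helicase that licenses DNA replication, and the cluster lies in one of its introns, so both are made from a transcript that E2F factors switch on as cells enter S phase. In human cells miR-106b and miR-93 lower CDKN1A (p21), the cell cycle inhibitor that p53 induces after DNA damage, and miR-25 lowers the death factor BCL2L11 (BIM).

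The 3 hairpins span 498 bases of chromosome 5 (GRCm38.p6, minus strand, chr5:138165321-138165818), within the span of Mcm7 (chr5:138164583-138172111, minus strand). They are shown to mark the arm that each guide was read as. Guide bases are in capitals, and all sequences are from RefSeq. The array gives older names with no arm, and these were read as miR-106b-5p, miR-93-5p and miR-25-3p.
Mir106b (chr5:138165737-138165818): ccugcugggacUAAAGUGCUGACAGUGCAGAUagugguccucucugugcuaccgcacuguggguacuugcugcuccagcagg
Mir93 (chr5:138165523-138165610): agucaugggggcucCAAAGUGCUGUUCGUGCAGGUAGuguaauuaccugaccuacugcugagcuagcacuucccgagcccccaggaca
Mir25 (chr5:138165321-138165404): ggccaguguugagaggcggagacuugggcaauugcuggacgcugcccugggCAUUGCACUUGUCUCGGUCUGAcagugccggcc

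The mature guides fall under 2 seeds. They are set beside the relatives that were measured, because levels of relatives that share a seed are compared below. Capitals mark the seed. The first seed joins mmu-miR-106b and mmu-miR-93 with miR-20a and miR-20b of the paralogous clusters.
mmu-miR-106b: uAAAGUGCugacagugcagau
mmu-miR-93: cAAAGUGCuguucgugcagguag
mmu-miR-20a: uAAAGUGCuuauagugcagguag
mmu-miR-20b: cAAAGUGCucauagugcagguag
The other seed joins mmu-miR-25 with miR-92a and miR-92b.
mmu-miR-25: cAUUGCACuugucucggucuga
mmu-miR-92a: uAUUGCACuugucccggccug
mmu-miR-92b: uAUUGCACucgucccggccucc
Compared base by base from the 5′ end, mmu-miR-106b and mmu-miR-93 were the same at 16 of 21 positions, and mmu-miR-25 and mmu-miR-92a at 18 of 21. mmu-miR-17 shares 18 of 21 positions with mmu-miR-106b, and it was detected on 0 of 19 arrays. Whether the probes for relatives take up each other's miRNA was not tested.

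Levels below are log2 values of the brightest probe after division by the 75th percentile of that array's signal over probes detected on all arrays, and they describe change within a miRNA, not amounts of one miRNA against another. The guides were well measured. The probe used for mmu-miR-106b had a median raw signal of 69.1 over the 19 arrays (35.1 to 114.3), that for mmu-miR-93 of 32.8 (20.8 to 68.8) and that for mmu-miR-25 of 40.2 (26.7 to 82.8). At least 8 of its 8 to 10 spots lay well above background on every array, and the spots of a probe varied with a median coefficient of variation of 7.46, 7.37 and 8.50% for mmu-miR-106b, mmu-miR-93 and mmu-miR-25. The second probe of mmu-miR-106b was also above the floor of detection on all arrays. That of mmu-miR-93 was at the floor (a log2 level of -4.79) on all 19, and that of mmu-miR-25 was at the floor on 3. The passenger strands mmu-miR-106b* and mmu-miR-93*, which are normally degraded after the guide is loaded, were detected on 0 of 19 arrays, and mmu-miR-25* was not analysed here. A ratio of guide to passenger strand was therefore not computed.

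Whole-array signal fell with the dose in the means of the groups, and its part in the results below was not tested apart from the scalings and the covariate given there. The 75th percentile of raw signal was 357 ± 111 in controls, 301 ± 75 in low-dose livers, 215 ± 61 in middle-dose livers and 195 ± 37 in high-dose livers (SD, n = 5, 5, 4 and 5). The number of miRNAs detected was 181 to 209 in controls, 174 to 209 in low-dose livers, 157 to 184 in middle-dose livers and 155 to 184 in high-dose livers. Labelling spike-ins, RNAs added before labelling, were at 11.97 to 12.63 log2 in controls, 12.00 to 12.36 in low-dose livers, 11.68 to 12.16 in middle-dose livers and 11.29 to 11.78 in high-dose livers. Arrays lay on 3 slides that each held all groups, and the slide was a block in the fits. All 5 hepatocyte markers, among them miR-122, the main miRNA of hepatocytes, were detected on all arrays, and replicates correlated at r of 0.961 to 0.997 across miRNAs. In whole liver, fewer cells of a type and less RNA per cell cannot be told apart.

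mmu-miR-106b passed the test against control at no dose. Its log2 levels were -1.61, -2.14, -2.06, -2.06 and -2.10 in controls and -1.66, -1.88, -1.96, -1.97 and -1.93 at the low dose. They were -1.79, -1.63, -1.94 and -1.75 in middle-dose livers and -1.74, -1.95, -1.92, -1.98 and -2.10 in high-dose livers. The first control mouse stood 0.45 above the next control and above all other mice, so every dose group overlapped the controls. The difference from control was 0.11 (95% interval -0.03 to 0.26) in low-dose livers, 0.14 (-0.02 to 0.30) in middle-dose livers and -0.00013 (-0.15 to 0.15) in high-dose livers. The limma adjusted p was 0.561, 0.246 and 1. Without that control mouse the middle dose difference was 0.23 and passed (limma adjusted p = 0.0403).

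mmu-miR-93 gave the one call of the cluster: at the middle dose it was 1.18-fold its control level with each array set to its 75th percentile over detected probes, but below control under 3 of 5 other scalings. Its log2 levels were -2.87, -2.97, -2.69, -2.80 and -2.86 in controls and -2.85, -2.81, -2.73, -2.70 and -2.59 at the low dose. They were -2.75, -2.73, -2.69 and -2.49 in middle-dose livers and -2.94, -3.00, -2.62, -2.74 and -2.74 in high-dose livers. Only 1 of the 4 middle dose mice lay above all controls, while all 4 lay above the control mean of their own slide. The middle dose difference was 0.24 (95% interval 0.11 to 0.37, SE 0.06), with a limma adjusted p of 0.0339. The low dose difference was 0.12 (0.004 to 0.24, adjusted p = 0.324) and the high dose difference 0.09 (-0.03 to 0.21, adjusted p = 0.371) in the same limma fit.

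That call rested on single arrays and on the processing: of 19 other settings or tests, it was lost in 17 (adjusted p of 0.0628 to 1). It was also lost when any of 8 single arrays was left out: control 10, 19 or 22, low dose 12, or any of the 4 middle dose arrays (5, 6, 14 and 20), with limma adjusted p of 0.0519 to 0.103. One of the 17 was array signal as a covariate (0.17, limma adjusted p = 0.263), a covariate added after the data were seen. In exact permutation tests (two-sided), p was 0.0556 without regard to slide and 0.0417 within slides, the smallest p that 24 arrangements allow, and 0.236 and 0.280 after adjustment over the 208 miRNAs. These tests called 0 of the 208 miRNAs at the middle dose (lowest adjusted p 0.200 and 0.280). Their losses, counted in the 17, therefore do not set mmu-miR-93 apart from other miRNAs. Of 6 leukocyte miRNAs 4 were tested, and miR-150 and miR-155 were detected on no array. Of the 4 tested, 1 passed at each dose, where 4.33, 5.77 and 2.4% of all 208 did at the low, middle and high dose. The summed relative level of those 4 was 1.05 to 1.48 in controls, 1.48 to 1.58 in low-dose livers, 1.32 to 1.68 in middle-dose livers and 1.22 to 1.71 in high-dose livers. The one that passed was miR-223, abundant in neutrophils, with differences of 0.37, 0.48 and 0.39 at these doses (limma adjusted p = 0.0382, 0.0198 and 0.0482). Its middle dose call was lost without control 10 or middle dose 6 or 14, and its low and high dose calls without any of 9 and of 15 single arrays. The middle dose value was -0.0052 with all probes setting the scale and -0.09 with no scaling, and the part of leukocytes in the mmu-miR-93 result was not tested.

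mmu-miR-25 showed a like difference at the middle dose that missed the threshold. Its log2 levels were -2.45, -2.77, -2.54, -2.53 and -2.57 in controls and -2.45, -2.58, -2.38, -2.56 and -2.33 at the low dose. They were -2.48, -2.34, -2.37 and -2.20 in middle-dose livers and -2.58, -2.60, -2.39, -2.38 and -2.52 in high-dose livers. Of the 4 middle dose mice 3 lay above all controls, and the fourth lay within their range. The difference was 0.12 (95% interval -0.03 to 0.28) in low-dose livers, 0.25 (0.08 to 0.42) in middle-dose livers and 0.10 (-0.06 to 0.26) in high-dose livers, and the limma adjusted p was 0.561, 0.0886 and 0.470. Without control 1 the middle dose difference was 0.32 and passed (limma adjusted p = 0.0193). The size at the middle dose was that of mmu-miR-93, and the wider interval came with an SE of 0.08.

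**Figure D1:**
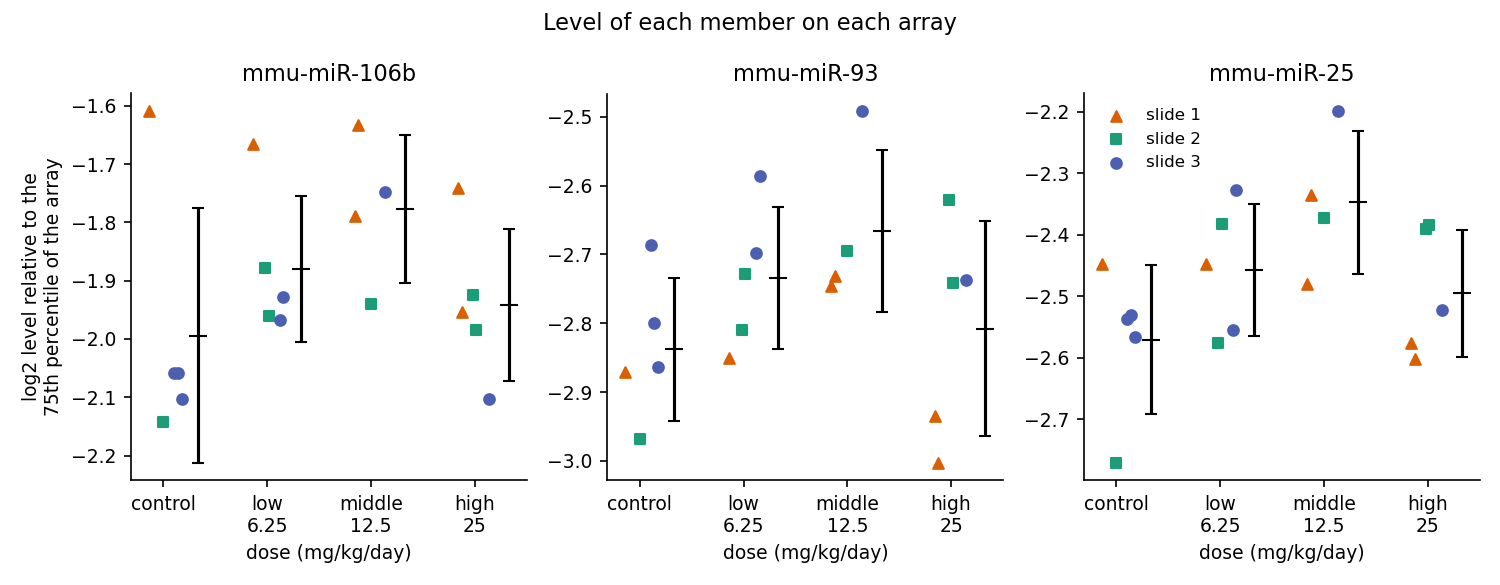
Log2 level (y axis, scaled by the 75th percentile of each array) for each member on each of 19 arrays, by dose group (x axis, mg/kg/day). Triangles, squares and circles are arrays of slides 1, 2 and 3, and bars are the mean ± SD of a group. Groups overlap in all 3 panels, and the slide 1 arrays lie high for mmu-miR-106b and low for mmu-miR-93.

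With 3 members, the counts of calls are set beside those of all miRNAs as a description. At the low dose 0 of 3 members passed, where 4.33% of the 208 tested miRNAs did. At the middle dose 1 of 3 passed, where 5.77% of all did, and at the high dose 0 of 3, where 2.4% did. The median difference was 0.07, 0.11 and 0.06 over all tested miRNAs at the low, middle and high dose. The mean of the doses against control gave 0.08 for mmu-miR-106b, 0.15 for mmu-miR-93 and 0.16 for mmu-miR-25 (limma adjusted p 0.390, 0.0645 and 0.122), 0 of 3 calls where 8.17% of all passed. Other processing gave calls in both directions here. mmu-miR-106b was at -0.18 with the median of detected miRNAs as the scale (limma adjusted p = 0.0413). mmu-miR-93 was at 0.16 with 223 probes setting the percentile (limma adjusted p = 0.0276). That was the setting of an earlier run, kept as an alternative after the data were seen.

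With the 75th percentile over detected probes, no member passed the test for a trend over the dose, and no pair of doses passed in a member. The order of the mean levels was control, high, low and middle dose in all 3 members, which were read on the same arrays, and no neighbours in that order passed the test. The trend over the dose was -0.0013, 0.0027 and 0.0030 log2 per mg/kg/day for mmu-miR-106b, mmu-miR-93 and mmu-miR-25, with limma adjusted p of 0.921, 0.659 and 0.676. With no scaling all 3 passed in the downward direction, at -0.030, -0.026 and -0.026 (limma adjusted p = 0.0147, 0.0178 and 0.0175), among 101 miRNAs then called. With the 75th percentile over detected probes, the trend test called 0 of 3 members and 0.962% of all miRNAs. The F test over the groups gave the same shares, and the members had limma adjusted p of 0.355, 0.115 and 0.198 in it. The high dose was below the middle dose by a like amount in each member, at -0.14 for mmu-miR-106b, -0.15 for mmu-miR-93 and -0.15 for mmu-miR-25, with limma adjusted p of 0.699, 0.660 and 0.699. Calls over all miRNAs were 0% for high against middle dose (0 of 208, with 14 at an unadjusted p under 0.05) and 0.481% each for middle against low and high against low dose. The 3 members gave 0 calls in each of these 3 comparisons.

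Differences of the doses were uneven over the slides. On slide 1, which held 1 control, mmu-miR-93 minus that control was 0.021 in low-dose livers, 0.13 in middle-dose livers and -0.10 in high-dose livers. On slide 2, also with 1 control, the values were 0.20, 0.27 and 0.29, and on slide 3, with 3 controls, 0.14, 0.29 and 0.046. The middle dose difference of mmu-miR-93 was thus positive on all 3 slides. For mmu-miR-25 it was 0.039, 0.40 and 0.35 on slides 1, 2 and 3, and for mmu-miR-106b -0.10, 0.20 and 0.33, with 1 or 2 middle dose arrays on a slide.

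How each array was scaled decided the sign of the middle dose difference, as the plot by scaling shows. For mmu-miR-93 it was 0.24 with the 75th percentile over detected probes, 0.03 with labelling spike-ins and 0.02 with quantile normalization. It was -0.11 when the median of the miRNAs detected on all arrays was the scale, -0.25 with the 75th percentile over all probes and -0.34 with no scaling. The median of the 137 miRNAs detected on all arrays moved with it, at 0.16, -0.03, -0.02, -0.19, -0.30 and -0.40 in the same order of settings. Set against that median, mmu-miR-93 was 0.04 to 0.08 above it at the middle dose under all 6 scalings, at rank 52 to 57 of 137 from the top.

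**Figure D2:**
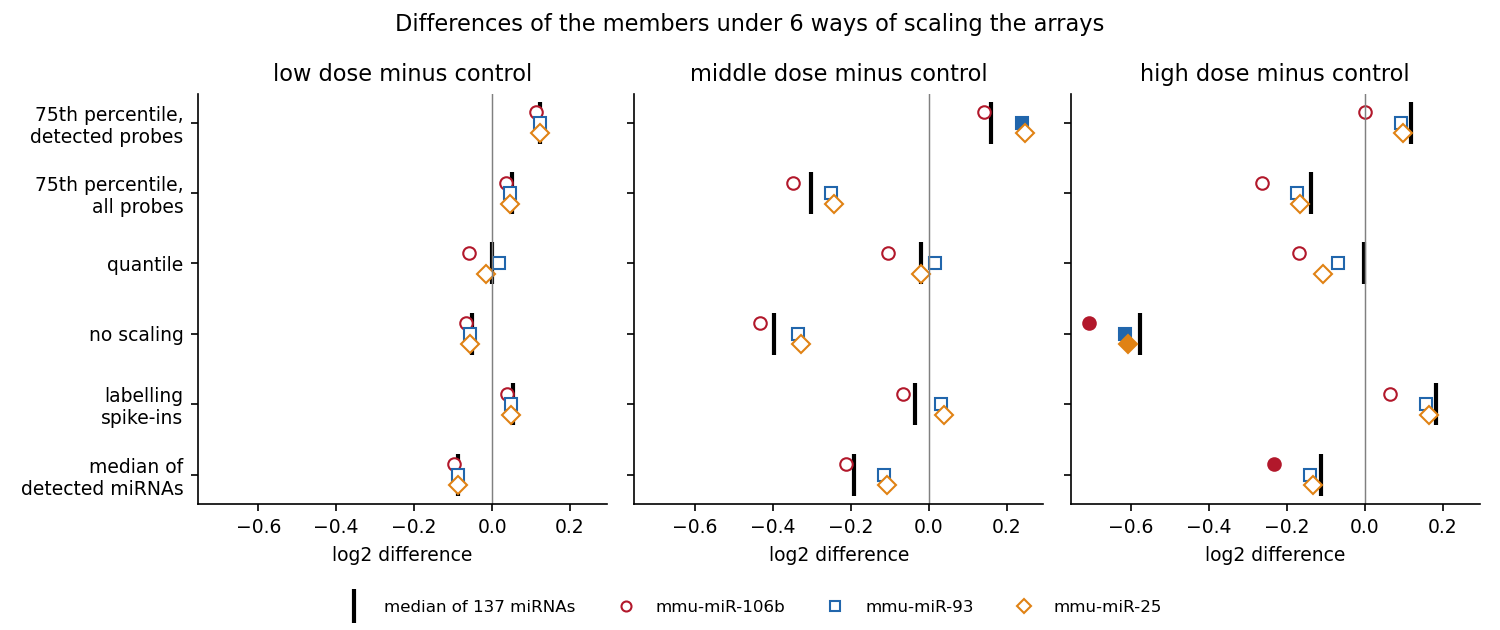
Log2 difference from control (x axis) at the low, middle and high dose under 6 ways of scaling the arrays (rows). Symbols are the members, filled where the limma adjusted p was under 0.05, and the black bar is the median of the 137 miRNAs detected on all arrays. The members stay near that bar while both move across 0, and at the middle dose mmu-miR-93 lies at 0.24 with the first scaling and at -0.34 with no scaling.

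The other members kept a like place among the detected miRNAs. mmu-miR-25 was -0.0011 to 0.09 from their median at the middle dose (rank 50 to 71 of 137), and mmu-miR-106b was -0.09 to -0.02 from it (rank 80 to 91). At the low dose mmu-miR-93 was itself the median miRNA, at rank 69, with the 75th percentile over detected probes. At the high dose mmu-miR-106b was -0.17 to -0.12 from the median (rank 97 to 102), mmu-miR-93 -0.07 to -0.03 and mmu-miR-25 -0.11 to -0.02. Other scalings changed calls at the high dose. With no scaling the members were lower there by -0.71 for mmu-miR-106b, -0.62 for mmu-miR-93 and -0.61 for mmu-miR-25 (limma adjusted p 0.0404, 0.0446 and 0.0442), together with 61 of the 62 miRNAs then called. With the median of detected miRNAs as the scale, mmu-miR-106b was lower at the high dose by -0.23 (limma adjusted p = 0.0400), with 74 of 75 calls. Over all miRNAs the 12 calls at the middle dose were all higher, against 1 of 34 with the 75th percentile over all probes, 1 of 7 with quantile normalization, 1 of 2 with no scaling and 1 of 101 with the median of detected miRNAs. At the low dose all 9 calls were higher, against 1 of 51 with that median.

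A ratio between members on the same array does not depend on a scaling by 1 factor per array. The ratio asks whether the cluster changed evenly. mmu-miR-93 over mmu-miR-106b was -0.85, -0.89 and -0.87 log2 at the low, middle and high dose and -0.84 in controls, and mmu-miR-25 over mmu-miR-106b was -0.58, -0.57 and -0.55 at these doses and -0.58 in controls. mmu-miR-25 over mmu-miR-93 was 0.28, 0.32 and 0.31, against 0.27 in controls. Without regard to slide, none of the 9 comparisons of a dose with control passed an exact permutation test (two-sided). The p of that test was 0.444 to 0.992, adjusted p 0.992 over the 9, and the largest difference was 0.05. Within slides the differences were larger at the middle and high dose in the ratios over mmu-miR-106b. They were 0.09 and 0.10 for mmu-miR-93 over mmu-miR-106b and 0.11 and 0.11 for mmu-miR-25 over mmu-miR-106b. None of these passed after adjustment. Permuted within slides, the smallest p was 0.0417 for mmu-miR-25 over mmu-miR-106b at the middle dose. The difference there was 0.11 and the adjusted p 0.333. A p of 0.0417 is the smallest that 24 arrangements allow, so this test could hardly pass after adjustment and does not show an even change. The SD of a group was 0.17 to 0.24 for mmu-miR-93 over mmu-miR-106b, 0.15 to 0.19 for mmu-miR-25 over mmu-miR-106b and 0.06 to 0.10 for mmu-miR-25 over mmu-miR-93. These SDs include differences between slides. Within a slide, with its groups together, the SD was 0.06 to 0.11, 0.06 to 0.12 and 0.06 to 0.07 for the same ratios.

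Arrays of slide 1 lay apart in the ratios that involve mmu-miR-106b. mmu-miR-93 over mmu-miR-106b was -1.12 ± 0.11 on slide 1 (SD, n = 6), -0.79 ± 0.08 on slide 2 (n = 6) and -0.70 ± 0.06 on slide 3 (n = 7). Slide 1 did not overlap the others, with a highest value of -0.956 against a lowest of -0.932 on slide 2. The level of mmu-miR-106b itself was -1.73 ± 0.13 on slide 1, -1.97 ± 0.09 on slide 2 and -1.995 ± 0.128 on slide 3 (SD), while mmu-miR-25 was -2.48, -2.48 and -2.46. Slide differences were not tested.

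**Figure D3:**
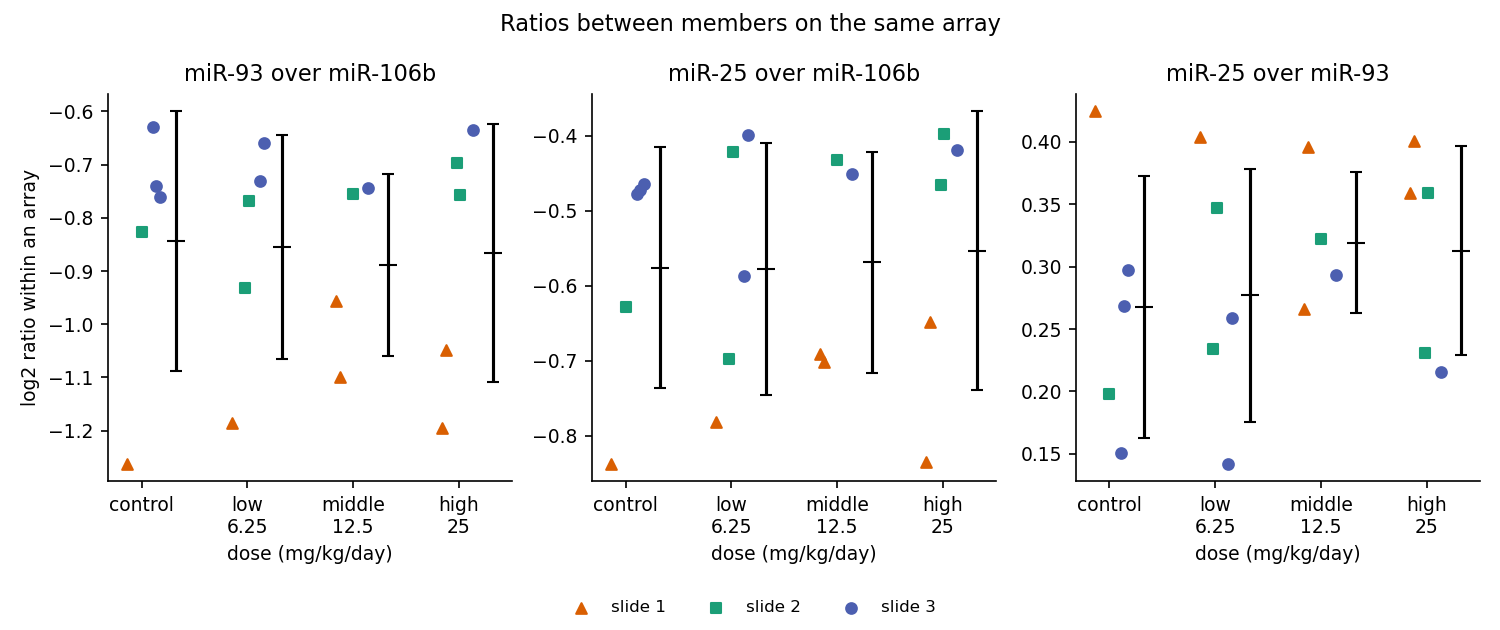
Log2 ratio of 2 members on the same array (y axis) by dose group (x axis, mg/kg/day), with arrays marked by slide and the mean ± SD of each group as bars. Without regard to slide, group means lie within 0.05 of the control mean in every panel. Slide 1 arrays lie apart for miR-93 over miR-106b.

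With slide means taken off, the members varied together over the 19 arrays. Pearson's r was 0.89 for mmu-miR-93 with mmu-miR-25, 0.76 for mmu-miR-106b with mmu-miR-25 and 0.74 for mmu-miR-106b with mmu-miR-93. The median r over all pairs of the 137 miRNAs detected on all arrays was 0.24. With slide differences left in, r was 0.78, 0.48 and 0.06 for the same pairs. The points share an array and its scaling, so these values describe the arrays and are not tested. The 5 miRNAs outside the cluster most like the mean of the 3 members were miR-140* (r = 0.89), miR-24 (0.77), miR-27a (0.75), miR-103 (0.73) and miR-30d (0.72), all above the floor on all 19 arrays.

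Relatives that share a seed gave a few calls of similar size. miR-20a and miR-20b, with the seed of mmu-miR-106b and mmu-miR-93, were higher at the low dose by 0.27 and 0.27 (limma adjusted p = 0.0380 and 0.0259), whereas mmu-miR-106b was at 0.11 and mmu-miR-93 at 0.12, with no call. That makes 2 of 2 tested relatives in low-dose livers, 0 of 2 in middle-dose livers (0.17 and 0.12) and 0 of 2 in high-dose livers (0.17 and 0.14). Over all 208 miRNAs these shares were 4.33, 5.77 and 2.4%, with median differences of 0.07, 0.11 and 0.06. Under the 5 other scalings the low dose values of both stayed positive with no call, and their middle dose values turned negative, with miR-20b called lower under 1 of them (-0.23 with the median of detected miRNAs, limma adjusted p = 0.0245). The difference between members and relatives was not tested. Of 4 listed relatives with this seed, miR-17 was detected on no array and miR-106a was not analysed here. The call of miR-20a was lost without any of 10 arrays (control 10, 17 or 19, low dose 3, 11, 12, 18 or 24, middle dose 14 and high dose 23), with limma adjusted p of 0.0517 to 0.201. That of miR-20b was lost without any of 6 (control 10, 17 or 19 and low dose 3, 12 or 24), with limma adjusted p of 0.0522 to 0.137.

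The relatives of mmu-miR-25 gave 1 call, at the middle dose. miR-92a, of the paralogous clusters, was higher there by 0.34 (limma adjusted p = 0.0320). It was higher by 0.28 and 0.24 at the low and high dose with no call (limma adjusted p 0.0517 and 0.10). The middle dose call of miR-92a was lost under 11 of 18 alternatives (lowest limma adjusted p 0.0918). Of the 18, 3 called miR-92a at the low dose and 1 at the high dose. With all probes setting the scale, no scaling or the median of detected miRNAs its middle dose value was -0.15, -0.23 or -0.01. miR-92b, near the floor in controls, had differences of 0.25 in low-dose, 0.68 in middle-dose and 0.74 in high-dose livers with no call, and its fitted values depend on that floor. At the high dose it was called under 4 of 17 alternatives (limma adjusted p of 0.000207 to 0.0420, at 0.81 with labelling spike-ins and 0.85 without the slide block) and, without control 1, at the middle and high doses (0.85 and 0.91, limma adjusted p = 0.0403 and 0.0327). miR-32 was at the floor on all 19 arrays, so 1 of 3 tested relatives passed at the middle dose (5.77% of all miRNAs) and 0 of 3 at the low and high doses (4.33 and 2.4% of all). The call of miR-92a was lost without control 10, low dose 12, or middle dose 6 or 14 (limma adjusted p of 0.0506 to 0.101). Of the 5 listed, miR-367 was detected on no array and miR-363 was not analysed here.

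**Figure D4:**
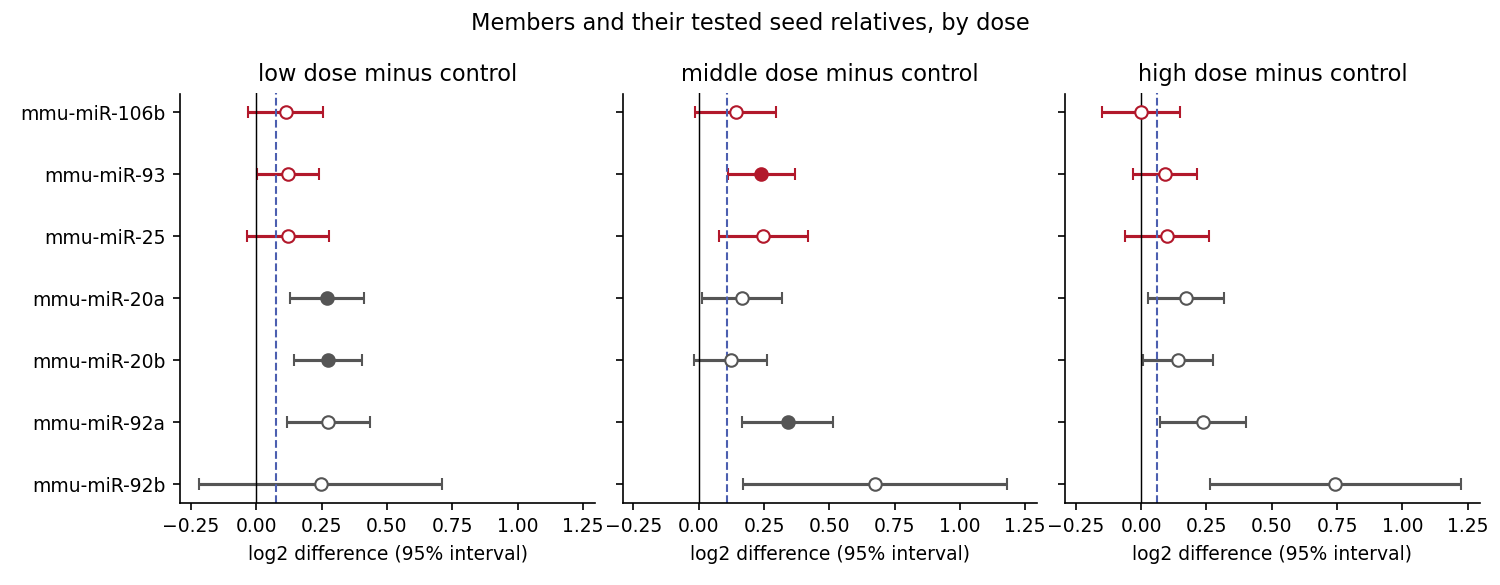
Log2 difference from control (x axis) with the 95% interval from limma at the low, middle and high dose, for the 3 members (red) and 4 relatives that share their seeds (grey). Filled points had an adjusted p under 0.05 over 208 miRNAs, and the dashed line is the median of all tested miRNAs. Differences are with the 75th percentile over detected probes as the scale; the middle dose values of mmu-miR-93 and mmu-miR-92a turn negative with no scaling.

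Wider lists gave the setting. Over all 208 tested miRNAs, 4.33, 5.77 and 2.4% passed at the low, middle and high dose, with median differences of 0.07, 0.11 and 0.06. Of 18 miRNAs of the paralogous clusters, 7 were tested, with 2 higher in low-dose livers (miR-20a and miR-20b), 1 in middle-dose livers (miR-92a) and 0 in high-dose livers, none lower, and medians of 0.18, 0.07 and 0.04. Of 13 miRNAs linked to the p53 response, 7 were tested and 1 was higher at each dose, with medians of 0.06, -0.01 and -0.05. That one was miR-34a, a direct p53 target, at 1.52, 3.11 and 3.49 (limma adjusted p = 0.0165, 3.59e-05 and 4.88e-06), and its low dose call was lost without control 10 (adjusted p = 0.0705) and under 10 of 18 alternatives, 4 of the 5 other scalings among them (limma adjusted p of 0.0557 to 1). With a floor 4 times higher the low dose value was 0.40. With the same scaling and all arrays, the largest difference of a dose from control in the cluster was 0.25.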

How the data were processed

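Raw 1-colour arrays were read with Agilent Feature Extraction 10.7.3.1, per the file headers, which gave a background-subtracted intensity for each spot with no scaling between arrays. The series' value table held log2 values deposited by the authors for 692 miRNAs, whose column medians were 5.04 to 5.06 and which followed the log2 raw median signal (r of 0.995 or more across miRNAs), so its scale is log2 and its direction is that of the signal. The sources used here do not give its centring.

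Control spots and outlier spots were dropped, spots were averaged per probe, and each array was scaled to the 75th percentile of its signal over the 220 probes with more than 0.5 of their spots well above background on all arrays. Values under a log2 floor of -4.79 were raised to it. Each miRNA took its brightest probe, and the 208 of 696 miRNAs detected on at least 4 arrays were tested. There were 0 saturated spots. limma 3.58.1 in R 4.3.3 (lmFit, eBayes) fitted all groups with the slide as a block, two-sided except F, with Benjamini-Hochberg adjustment over the 208 in each comparison and a threshold of 0.05. Intervals are at 95%. Exact permutation tests were run in Python 3.11.15.

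An earlier run took probes with at least 0.5 of their spots above background (223 probes). It is kept as an alternative. Scanner files held median, not mean, raw signals, so the normexp alternative used those. Alternatives covered scaling, background, probe choice, floor, filter, slide block and each array left out. The fit and the permutation tests were tested on simulated data.

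The members, the lists and the rule for named genes were chosen with earlier results of these data known. The rule names the members, all tested relatives of the same seed, up to 4 brightest of other lists, miR-34a and the 5 miRNAs most like the members. miR-223 was added after its values were seen. The labels name 5 animals per dose, and 4 middle dose arrays were analysed here. The number of arrays limits the precision.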

Additional observations from a re-analysis of the deposited data

Results flagged for a closer look

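mmu-miR-106b in control 1 stood apart from the other controls. Its log2 level was -1.61, against -2.06 in the next of the 5 controls, and this gap was 0.84 of the whole range of the group. It was 1 of 24 groups checked for a far sample, of which chance flags about 1 in 20. Control 1 was the only control on slide 1, where mmu-miR-106b was high in the dosed groups too. Without it the middle dose differences were 0.23 for mmu-miR-106b, 0.29 for mmu-miR-93 and 0.32 for mmu-miR-25 (limma adjusted p = 0.0403, 0.0125 and 0.0193), and 36 miRNAs in place of 12 were called. Leaving it out also removes the control of slide 1, and what sets it apart was not tested.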

How the results depend on the processing

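Members were recomputed under each alternative, and their ratios with the scanner's total gene signal, permutation within slides and, for miR-25 over miR-106b, the other probe, which made 543 values beside those with single arrays left out. Of these 396 kept their direction and their side of the threshold, or moved by less than the spread of the mice where no test applied. A further 117 changed sign, and 13 values within a slide moved further. The middle dose call of miR-93 was lost in 17 settings, 4 of them with the sign changed. The 17 include the exact permutation tests, which called no miRNA at that dose. Another 9 values gained a call, 5 of them with the sign changed. Those 9 were the trend and the high dose difference of all 3 members with no scaling (all lower), the high dose difference and the mean of the doses of miR-106b with the median of detected miRNAs (both lower), and the mean of the doses of miR-93 with 223 probes. The call of miR-93 held with miRNAs detected on all arrays only and with 223 probes. The other probe gave no value for miR-93, nor the higher floor for miR-92b, as both were at the floor throughout, and the guide to passenger ratio was not run. The cause of the changes was not tested, and probes near background limit the precision. No paired analysis was possible because the replicate numbers differ between the groups. Calls over all miRNAs ranged over other processing from 0 to 51 at the low dose (9 in the main setting), 1 to 101 at the middle dose (12) and 1 to 75 at the high dose (5). For the mean of the doses the range was 1 to 86 (17), for the trend 1 to 101 (2) and for the F test 1 to 89 (2). Middle against low dose gave 0 to 37 (1), high against low dose 0 to 19 (1) and high against middle dose 0 throughout. With single arrays left out the low, middle and high dose counts were 0 to 13, 2 to 36 and 1 to 23, and those of the mean of the doses, the trend and the F test were 2 to 35, 2 to 17 and 1 to 11.

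With quantile normalization the values were low dose -0.058 for miR-106b and -0.015 for miR-25, and middle dose -0.10 for miR-106b, 0.017 for miR-93, -0.0205 for miR-25, -0.019 for miR-20a and -0.17 for miR-20b. Quantile normalization also gave high dose -0.0703 for miR-93, -0.11 for miR-25 and -0.073 for miR-20b, and mean of the doses -0.11 for miR-106b, -0.012 for miR-93 and -0.048 for miR-25. Quantile normalization also gave middle minus low -0.046 for miR-106b and -0.0058 for miR-25, and trend -0.0032 for miR-93 and -0.0045 for miR-25. With no scaling the values were low dose -0.068 for miR-106b, -0.057 for miR-93 and -0.057 for miR-25, and middle dose -0.43 for miR-106b, -0.34 for miR-93, -0.33 for miR-25, -0.41 for miR-20a, -0.45 for miR-20b, -0.23 for miR-92a and -0.091 for miR-223. No scaling also gave high dose -0.71 for miR-106b, -0.62 for miR-93, -0.61 for miR-25, -0.53 for miR-20a, -0.56 for miR-20b, -0.47 for miR-92a and -0.32 for miR-223, and mean of the doses -0.40 for miR-106b, -0.34 for miR-93 and -0.33 for miR-25. No scaling also gave middle minus low -0.37 for miR-106b, -0.28 for miR-93 and -0.27 for miR-25, and trend -0.030 for miR-106b, -0.026 for miR-93 and -0.026 for miR-25. With the median of detected miRNAs the values were low dose -0.10 for miR-106b, -0.087 for miR-93 and -0.088 for miR-25, and middle dose -0.21 for miR-106b, -0.11 for miR-93, -0.11 for miR-25, -0.19 for miR-20a, -0.23 for miR-20b and -0.013 for miR-92a. The median of detected miRNAs also gave high dose -0.23 for miR-106b, -0.14 for miR-93, -0.13 for miR-25, -0.059 for miR-20a and -0.0896 for miR-20b, and mean of the doses -0.18 for miR-106b, -0.11 for miR-93 and -0.11 for miR-25. The median of detected miRNAs also gave middle minus low -0.11 for miR-106b, -0.026 for miR-93 and -0.019 for miR-25, and trend -0.0050 for miR-93 and -0.0047 for miR-25. With the series' value table the values were low dose -0.034 for miR-93, and middle dose -0.0087 for miR-106b, -0.041 for miR-93 and -0.038 for miR-20b. The series' value table also gave high dose -0.042 for miR-93, -0.00395 for miR-25 and -0.0082 for miR-20b, and mean of the doses -0.018 for miR-106b and -0.039 for miR-93. The series' value table also gave middle minus low -0.015 for miR-106b and -0.0066 for miR-93, and trend -0.0014 for miR-93 and -0.000495 for miR-25. On slide 1 alone the values were low dose -0.056 for miR-106b and -0.00021 for miR-25, and middle dose -0.10 for miR-106b and 0.039 for miR-25. Slide 1 alone also gave high dose -0.24 for miR-106b, -0.10 for miR-93 and -0.14 for miR-25. On slide 2 alone the values were low dose 0.29 for miR-25, and middle dose 0.40 for miR-25. Slide 2 alone also gave high dose 0.19 for miR-106b, 0.29 for miR-93 and 0.38 for miR-25. With the 75th percentile over all probes the values were middle dose -0.35 for miR-106b, -0.25 for miR-93, -0.24 for miR-25, -0.32 for miR-20a, -0.37 for miR-20b, -0.15 for miR-92a and -0.0052 for miR-223, and high dose -0.17 for miR-93, -0.17 for miR-25, -0.092 for miR-20a, -0.12 for miR-20b and -0.029 for miR-92a. The 75th percentile over all probes also gave mean of the doses -0.19 for miR-106b, -0.13 for miR-93 and -0.12 for miR-25, and middle minus low -0.38 for miR-106b, -0.30 for miR-93 and -0.29 for miR-25. The 75th percentile over all probes also gave high minus middle 0.083 for miR-106b, 0.075 for miR-93 and 0.076 for miR-25, and trend -0.0086 for miR-93 and -0.0082 for miR-25. With labelling spike-ins the values were middle dose -0.066 for miR-106b, 0.033 for miR-93, -0.0405 for miR-20a and -0.084 for miR-20b, and high dose 0.064 for miR-106b. Labelling spike-ins also gave middle minus low -0.10 for miR-106b, -0.017 for miR-93 and -0.0092 for miR-25, and high minus low 0.026 for miR-106b, 0.11 for miR-93 and 0.11 for miR-25. Labelling spike-ins also gave high minus middle 0.13 for miR-106b, 0.12 for miR-93 and 0.12 for miR-25, and trend 0.0021 for miR-106b. With normexp the values were middle dose 0.56 for miR-93, and high dose 0.15 for miR-106b. Normexp also gave high minus low 0.0048 for miR-25, and trend 0.0048 for miR-106b. With the scanner's total gene signal the values were middle dose -0.011 for miR-106b, 0.0898 for miR-93, -0.0018 for miR-20a and -0.025 for miR-20b, and mean of the doses -0.0094 for miR-106b. The scanner's total gene signal also gave middle minus low -0.047 for miR-106b and -0.022 for miR-25, and high minus low 0.0078 for miR-93. The scanner's total gene signal also gave middle dose -0.069 for miR-25 over miR-106b, and high dose -0.027 for miR-25 over miR-106b. The scanner's total gene signal also gave middle dose -0.034 for miR-25 over miR-93, and high dose -0.013 for miR-25 over miR-93. With probes averaged the values were middle dose 0.22 for miR-93, and high dose 0.00075 for miR-106b. With a floor 4 times higher the values were middle dose 0.15 for miR-93, and high minus low 0.0074 for miR-93. With no filter the values were middle dose 0.24 for miR-93. With array signal as a covariate (added after the data were seen) the values were middle dose 0.17 for miR-93, and high dose -0.013 for miR-25. Array signal as a covariate also gave trend -0.0021 for miR-93 and -0.0029 for miR-25. Without the slide block the values were middle dose 0.17 for miR-93, and high dose 0.053 for miR-106b. Leaving out the slide block also gave trend 0.0015 for miR-106b. With slide and row as blocks the values were middle dose 0.26 for miR-93, and high dose 0.073 for miR-106b. Slide and row as blocks also gave trend 0.0016 for miR-106b. With slide as a random block the values were middle dose 0.20 for miR-93, and high dose 0.028 for miR-106b. Slide as a random block also gave trend 0.00017 for miR-106b. On slide 3 alone the values were middle dose 0.33 for miR-106b. With means compared by exact permutation the values were middle dose 0.17 for miR-93, and high dose 0.053 for miR-106b. With exact permutation within slides the values were middle dose 0.23 for miR-93, and low dose 0.018 for miR-93 over miR-106b. Exact permutation within slides also gave middle dose 0.087 for miR-93 over miR-106b, and high dose 0.10 for miR-93 over miR-106b. Exact permutation within slides also gave low dose 0.0196 for miR-25 over miR-106b. With the other probe the values were high dose 0.00031 for miR-106b, and middle minus low -0.033 for miR-106b. The other probe also gave low dose 0.027 for miR-25 over miR-106b, and middle dose -0.083 for miR-25 over miR-106b. With 223 probes setting the percentile (the setting of an earlier run) the values were high dose 0.025 for miR-106b, and mean of the doses 0.16 for miR-93.

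With single arrays left out, the middle dose difference was 0.056 to 0.23 for miR-106b, 0.20 to 0.29 for miR-93, 0.18 to 0.32 for miR-25. The high dose difference of miR-106b was -0.046 to 0.0797 and its trend -0.0033 to 0.00079. The mean of the doses was 0.11 to 0.20 for miR-93, called without control 1 and high dose 8 or 15, and 0.087 to 0.22 for miR-25, called without control 1. Middle minus low was -0.047 to 0.0704 for miR-106b, and high minus low -0.056 to 0.0047 for miR-25. Low, middle and high dose differences in a ratio were -0.12 to 0.071, -0.15 to 0.025, -0.13 to 0.0596 for miR-93 over miR-106b and -0.067 to 0.049, -0.059 to 0.051, -0.043 to 0.093 for miR-25 over miR-106b. For miR-25 over miR-93 they were -0.022 to 0.048, 0.022 to 0.091, 0.016 to 0.084.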
